A study of Mus musculus with 16 samples.

Results

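The comparison described here is between granulosa cells (GCs) taken straight from mice with surgically induced endometriosis (EM) and from sham-operated mice (Con). Its members were chosen by the library names that the labels give, EM-mGC-1 to EM-mGC-5 against Con-mGC-1 to Con-mGC-5, without pairing, which took 10 of the 16 samples of the series. All mice were ICR females, 6 weeks old at surgery. In the EM group, endometrium from estradiol-primed donor mice was sutured to the serosa of the bowel mesentery, and the Con group had the operation without an implant. The recipients kept their ovaries and received estradiol over 14 days, followed by a washout of 2 weeks, and ovulation was induced at day 30. Whether the sham mice also received estradiol, and which gonadotropin these mice received, is not stated clearly in the sources used here, so the implant and the estradiol course cannot be told apart. GCs were released by puncture of follicles, which does not remove blood or the cells around the follicle, and poly(A) RNA of each mouse was sequenced with a strand-preserving kit. The model differs from the human disease in that the tissue is a graft from another animal of an outbred stock.

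GCs are the somatic cells that line the ovarian follicle, convert androgen to estrogen, make inhibins and feed the oocyte through gap junctions. They sit inside a basal lamina without blood vessels, and outside it lies the theca, a layer of steroid-making cells, fibroblasts, smooth muscle and capillaries. In endometriosis, uterine lining grows outside the uterus and is accompanied by inflammation of the peritoneal cavity. At ovulation leukocytes enter the follicle wall, the lamina is broken down, and GCs turn into luteal cells.

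The counts of each mouse summed to 15285055, 15727496, 15565156, 14462398 and 15999234 reads in Con and to 14410439, 15072324, 14351969, 14965723 and 14229123 reads in EM. The EM libraries were shallower on the whole, with ranges that overlapped (two-sided exact permutation test of the means, p = 0.0397, where 0.00794 is the smallest that 5 against 5 mice can give). Within libraries, 57010 genes were listed and 17229 passed the expression filter and were tested. Values are given below as CPM, reads per 1000000 reads of the library, after TMM scaling, which removes differences in depth and composition but not in gene length, so that a CPM is compared between mice and not between genes. Differences are log2 fold changes of EM over Con from edgeR's quasi-likelihood fit, given with ± the standard error (SE). Adjusted p-values are Benjamini-Hochberg values of that fit over all genes tested. They come from setting the group difference against the spread between mice within the groups, and do not measure that spread.

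All 24 listed genes of GC identity were measured in every library, among them Inha, which encodes the inhibin alpha subunit, at 5711 ± 1149 CPM in Con and 5149.6 ± 1929.5 CPM in EM (mean ± SD, n = 5 mice each), and the FSH receptor gene Fshr at 116 ± 9.39 CPM in Con and 112 ± 53.5 CPM in EM. Other cell types were present as well, and the summed CPM of the marker lists of theca, endothelium, leukocytes, blood and oocytes are given with the results they go with. 3 libraries stood apart. Con-mGC-1 had reads on 22071 genes, against 25080 to 27642 in the other 9, and lay alone on the first principal component, which held 35.5% of the variance. In EM-mGC-3 mitochondrial genes took 21.8% of the counts, against 6.76 to 11.1% in the other libraries, and red blood cell genes summed to 17619 CPM, against 2749 to 6220 CPM. The share of mitochondrial counts was 8.38 ± 1.74% in Con and 12.01 ± 5.61% in EM (SD, n = 5 mice each, two-sided exact permutation test, p = 0.135). Con-mGC-3 held the largest leukocyte sums of the Con group, as described below. Many results that rest on these libraries are therefore given with and without them. For a number of single genes only the value with all mice is printed.

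**Figure D1:**
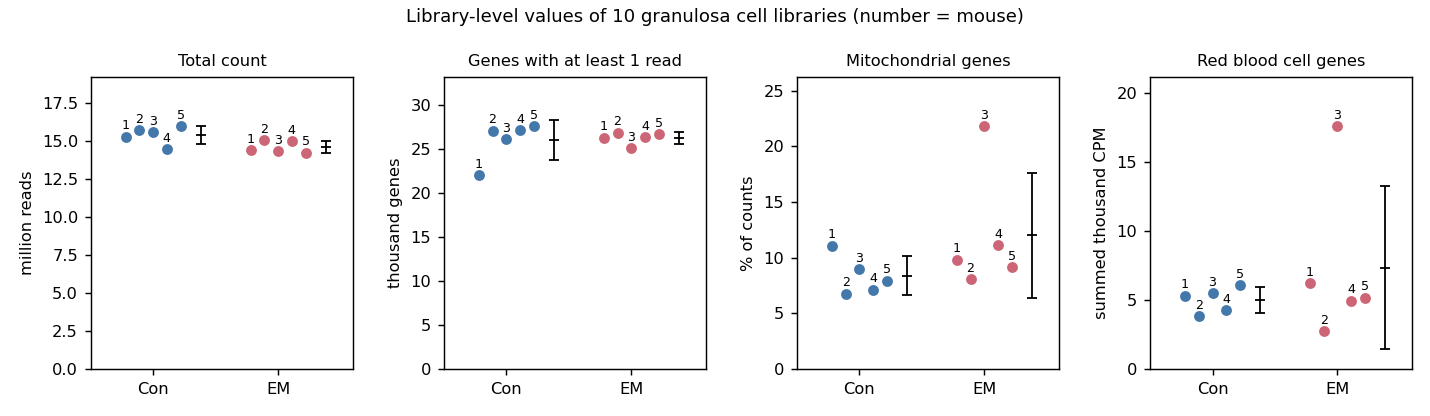
Total counts, genes with at least 1 read, percent of counts on mitochondrial genes and summed CPM of red blood cell genes (y axes) in the 5 Con and 5 EM libraries (x axis). Each point is a mouse with its number, and the black bar gives the mean and SD. Con-mGC-1 lies lowest in genes detected, at 22071, and EM-mGC-3 highest in mitochondrial share, at 21.8%, and in red blood cell genes.

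No gene reached an adjusted p under 0.05 (0 of 17229, 0% of those tested, smallest adjusted p = 0.207 by edgeR with Benjamini-Hochberg adjustment). At an unadjusted p under 0.05 the test held 1626 genes, or 9.44%, of which 899 were higher in EM (5.22% of genes tested) and 727 lower (4.22%). By other tools on the same counts, DESeq2 called 113 genes at an adjusted p under 0.05 (64 higher and 49 lower in EM) and limma voom with library quality weights called 224 (139 higher and 85 lower), with 87 genes called by both. The groups did not overlap for 292 genes (1.69%), with every EM mouse above every Con mouse for 158 (0.917%) and below for 134 (0.778%). Over all genes tested, 8296 (48.2%) had a fitted value above 0 and the median log2 fold change was -0.01, and these are the figures that the lists below are set beside. The median SD between mice on the log2(CPM + 1) scale was 0.221 in Con and 0.261 in EM, and 0.212 in EM without EM-mGC-3.

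**Figure D2:**
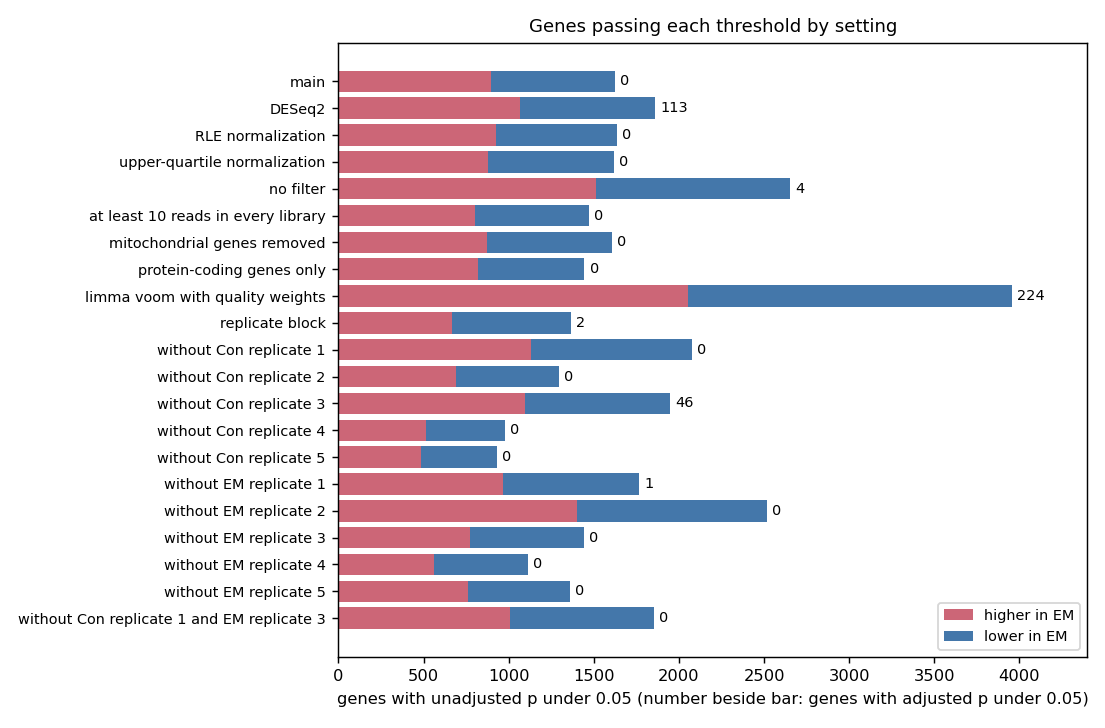
Number of genes with an unadjusted p under 0.05 (x axis, coloured by direction) under each setting of the analysis (y axis), with the number of genes at an adjusted p under 0.05 printed beside each bar. The main setting gives 1626 and 0. The adjusted count reaches 46 without Con-mGC-3, 113 with DESeq2 and 224 with voom and quality weights.

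Of the 15 genes lower in EM with the smallest p-values, 5 stand on the matrix, stroma and smooth muscle lists used below, which were picked for this count after the genes were seen. The share of all tested genes on these lists is not given here, so the count has no background beside it. Col6a4, a chain of type VI collagen (ENSMUSG00000032572, chr9:105866653-105973982, minus strand, GRCm39), was at 67.4, 63.7, 48.2, 67.4 and 111 CPM in Con and 36.00, 26.3, 29.95, 33.2 and 33.4 CPM in EM. All EM mice lay below all Con mice, and Con-mGC-5 was highest (log2 fold change -1.17 ± 0.19 (SE), adjusted p = 0.207). Alox15 (ENSMUSG00000018924, chr11:70234978-70242857, minus strand), which encodes an arachidonate lipoxygenase, was at 12.96, 10.8, 18.8, 18.2 and 8.71 CPM in Con and 3.69, 4.07, 1.33, 3.41 and 0.689 CPM in EM. The groups were again apart, with EM-mGC-3 and EM-mGC-5 lowest (log2 fold change -2.38 ± 0.41 (SE), adjusted p = 0.207). Aoc3, a vascular amine oxidase of smooth muscle and endothelium, was at 56.8, 45.8, 60.02, 52.2 and 76.2 CPM in Con and 37.5, 30.1, 35.01, 32.7 and 36.9 CPM in EM. Its groups did not overlap and the EM mice lay close together (log2 fold change -0.76 ± 0.13 (SE), adjusted p = 0.207).

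Col4a4, a chain of type IV collagen of basement membranes (ENSMUSG00000067158, chr1:82426144-82564570, minus strand), was at 15.4, 12.3, 14.6, 16.8 and 19.2 CPM in Con and 10.5, 7.75, 6.14, 6.62 and 7.51 CPM in EM. Every EM mouse was below every Con mouse (log2 fold change -1.02 ± 0.18 (SE), adjusted p = 0.207). The transcription factor Tbx3 had 30.2, 41.6, 43.95, 45.1 and 59.4 CPM in Con and 22.8, 18.9, 14.9, 25.2 and 24.5 CPM in EM (log2 fold change -1.05 ± 0.18 (SE), adjusted p = 0.207). Gli1, the transcription factor and target of Hedgehog signalling that marks theca precursors, was at 7.69, 5.03, 5.13, 5.77 and 6.62 CPM in Con and 3.34, 3.29, 1.83, 2.25 and 2.48 CPM in EM (log2 fold change -1.19 ± 0.23 (SE), adjusted p = 0.270). For both, the groups did not overlap. Myh11, the smooth muscle myosin heavy chain, had means of 42.8 and 21.9 CPM (log2 fold change -0.96 ± 0.18, adjusted p = 0.268), and Ltbp4, which binds latent TGF-beta in elastic fibres, had 121 and 61.03 CPM (log2 fold change -0.98 ± 0.19, adjusted p = 0.270). Nid2 (a nidogen of the basal lamina), Itih5, Tcaf1, Col1a1, Cacnb2 (a calcium channel subunit) and Chst2 had log2 fold changes of -0.68 ± 0.13, -0.87 ± 0.18, -0.88 ± 0.19, -0.96 ± 0.21, -0.81 ± 0.18 and -0.78 ± 0.18, each without overlap between the groups. Gnas, which encodes the stimulatory G protein alpha subunit within an imprinted locus of several transcripts, was at -0.65 ± 0.15 with groups that overlapped. Without any 1 library, the log2 fold change of Col6a4 stayed between -1.28 and -0.96, that of Alox15 between -2.59 and -2.14, and that of Col4a4 between -1.16 and -0.94.

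Of the 15 genes higher in EM with the smallest p-values, 7 stand on the leukocyte and cytokine lists used below, picked in the same way and likewise without a background share. Wfdc17, which encodes a small secreted protein of activated macrophages (ENSMUSG00000069792, chr11:83594817-83597094, plus strand), was at 3.42, 2.88, 6.32, 3.45 and 1.91 CPM in Con and 8.08, 9.27, 18.2, 20.7 and 18.7 CPM in EM. The 2 groups did not overlap, and EM-mGC-3, EM-mGC-4 and EM-mGC-5 were highest (log2 fold change 2.06 ± 0.35 (SE), adjusted p = 0.207). Slc30a4, a zinc transporter, was at 37.1, 36.8, 39.3, 35.6 and 34.8 CPM in Con and 44.3, 47.9, 53.8, 60.9 and 56.3 CPM in EM. Its difference was small but the groups were apart (log2 fold change 0.52 ± 0.10 (SE), adjusted p = 0.270). Bcl2l11, the pro-apoptotic BIM, had 23.1 and 32.2 CPM as group means, also without overlap (log2 fold change 0.48 ± 0.11, adjusted p = 0.348). Mmp9 and Asprv1, proteases of neutrophils, had log2 fold changes of 1.86 ± 0.38 and 2.48 ± 0.51, both without overlap. Socs3, which limits cytokine signalling, was at 0.93 ± 0.21, and the Fc receptor gamma chain Fcer1g at 1.09 ± 0.25, with Con-mGC-3 in each above the lowest EM mouse. Rpl9-ps6, a copy of a ribosomal protein gene whose reads may come from its parent, had a log2 fold change of 0.58 ± 0.13.

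**Figure D3:**
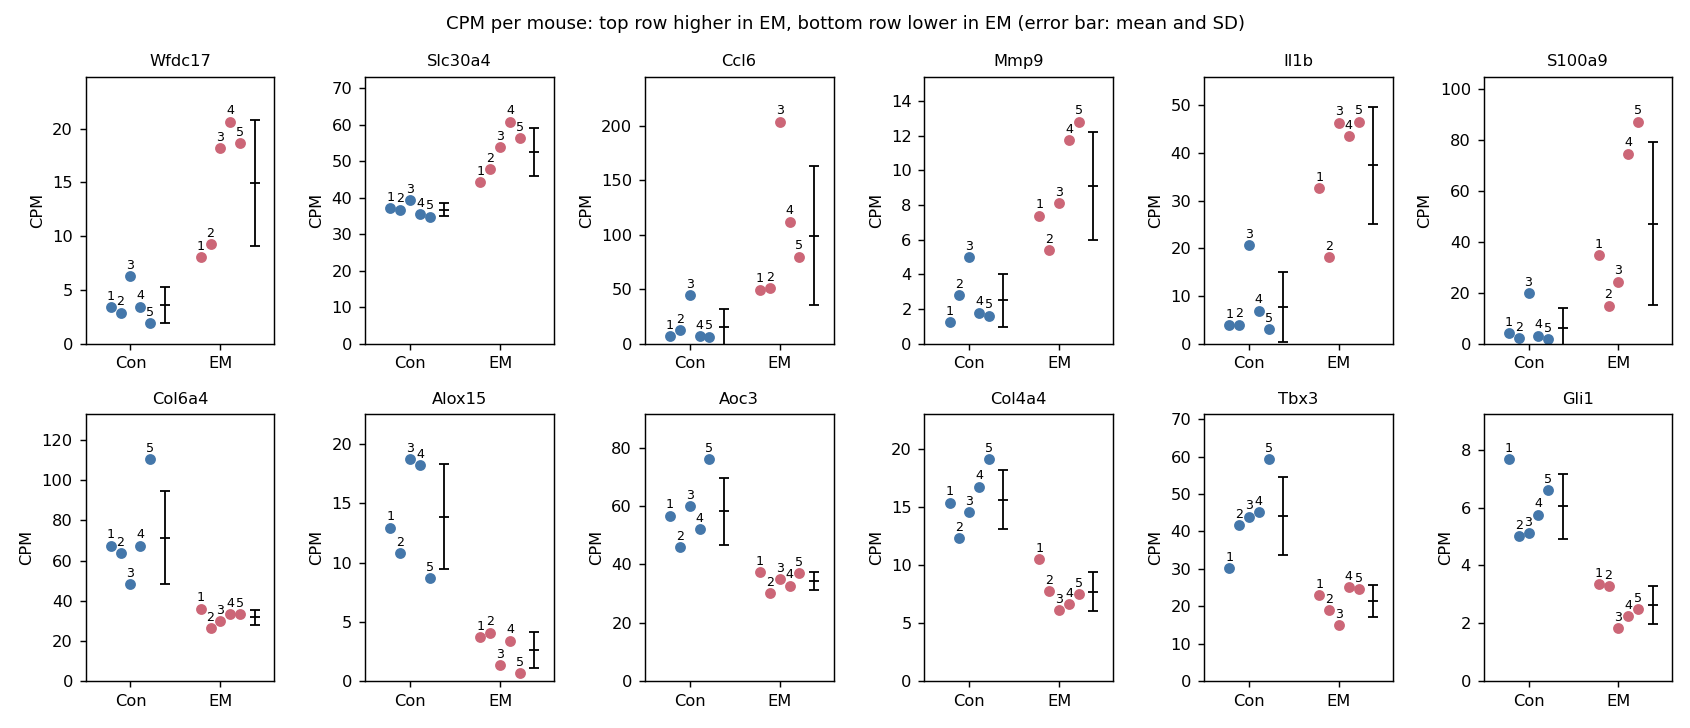
CPM (y axis, from 0) of 6 genes higher in EM (top) and 6 lower in EM (bottom) in each Con and EM mouse (x axis). Numbers are mice and black bars the mean and SD, cut at 0. For Col6a4, Alox15, Aoc3, Col4a4, Tbx3 and Gli1 the EM points all lie under the Con points, while for Il1b and S100a9 Con-mGC-3 reaches into the EM range.

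By size of difference among genes with an unadjusted p under 0.05 and a mean of at least 4 CPM, the list of higher genes was led by Chil3, a chitinase-like protein of myeloid cells, at 0.921, 0.613, 9.32, 0.597 and 0.119 CPM in Con and 9.54, 11.2, 36.7, 45.6 and 32.6 CPM in EM. The EM mice all exceeded the Con mice, though Con-mGC-3 came within 1 CPM of the lowest EM mouse (log2 fold change 3.54 ± 0.86 (SE), adjusted p = 0.348, and 5.59 without Con-mGC-3). Of the Con mice only Con-mGC-1 and Con-mGC-3 reached the filter's level of 0.666 CPM. Chil3 was thus tested because it was high in EM, and its difference was selected in part for that direction. Spp1, osteopontin, a matrix protein secreted by macrophages among other cells, was at 10.9, 21.1, 48.5, 22.2 and 5.49 CPM in Con and 53.6, 25.3, 67.04, 793 and 247 CPM in EM. EM-mGC-4 alone gave most of the EM total, and the log2 fold change of 3.45 ± 0.91 became 2.18 without it. Among the genes lower in EM that were named for the size of their difference, Car3 (log2 fold change -3.20 ± 0.81) and Cfd (log2 fold change -3.12 ± 1.07, and -1.93 without Con-mGC-1) had the largest differences, and both were highest in Con-mGC-1 and Con-mGC-3, as set out in the closing observations. Klhl14 (log2 fold change -1.27 ± 0.31), Cdh13 (log2 fold change -1.21 ± 0.36), Gdpd2 (log2 fold change -1.18 ± 0.28), Prg4 (log2 fold change -1.15 ± 0.34) and Thrsp (log2 fold change -1.12 ± 0.40) were also named in this way, as were Alox15, Gli1 and Col6a4, given above. Of the genes named here, Gli1, Tbx3, Nid2, Klhl14, Prg4 and Ccl6 overlap a counted gene on the other strand, and mt-Atp6 overlaps mt-Co3 and mt-Atp8 on its own strand, so reads in the shared stretch may belong to either. Ltb4r1, the receptor of the neutrophil attractant leukotriene B4, lies under the level set for naming and was picked after its values were seen. It passed the filter through the EM mice alone, since every Con mouse was under 0.666 CPM, so it had to differ. It was at 0, 0.306, 0.500, 0.464 and 0.119 CPM in Con and 2.16, 1.77, 7.97, 3.28 and 3.79 CPM in EM (log2 fold change 3.73 ± 0.62 (SE), adjusted p = 0.207), with EM-mGC-2 the nearest to the Con range and no overlap.

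Neutrophils are granulocytes that enter tissue from blood and carry granule proteins (S100a8, S100a9, Mmp8, Mmp9), receptors for chemokines and formyl peptides (Cxcr2, Fpr1, Fpr2) and the G-CSF receptor Csf3r. Of 30 listed neutrophil genes 23 were tested; 20 were higher in EM, 18 of them at an unadjusted p under 0.05, and 3 were lower, none of these at that threshold. The median log2 fold change was 1.86, beside -0.01 over all genes. Leaving out 1 library gave medians from 1.70 (without Con-mGC-1) to 2.82 (without Con-mGC-3). The 7 genes not tested (Cxcr1, Camp, Ly6g, Elane, Mpo, Trem3 and Stfa2l1) had too few reads, and each had a higher mean in EM. Since 8 of the 23 tested genes reached the filter's level of 0.666 CPM in at most 2 Con mice, they were tested because they were high in EM, and the list's count and median describe genes selected in part for that direction. Under a filter of at least 10 reads in every library, 13 genes of the list were tested. Of these, 11 were higher, 9 at an unadjusted p under 0.05 (median 1.38). Under the main filter with a library left out, the count of higher genes at that threshold ran from 15 (without Con-mGC-5) to 19 (without EM-mGC-2), and it was 16 without Con-mGC-1 and EM-mGC-3 together.

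S100a9, a subunit of calprotectin, was at 4.14, 2.21, 19.9, 3.12 and 1.79 CPM in Con and 34.7, 14.9, 24.3, 74.6 and 87.3 CPM in EM. Con-mGC-3 was above the lowest EM mouse, and the other 4 Con mice were below 5 CPM (log2 fold change 2.92 ± 0.69 (SE), adjusted p = 0.348). Its partner S100a8 was at 0.263, 0.613, 7.25, 0.663 and 0.597 CPM in Con and 11.6, 5.91, 11.6, 33.3 and 39.3 CPM in EM. The order of the mice was similar, with EM-mGC-4 and EM-mGC-5 highest (log2 fold change 3.43 ± 0.83 (SE), adjusted p = 0.348). Cxcr2, the receptor that draws neutrophils towards CXCL1 and CXCL2, was at 0.263, 0.306, 2.31, 1.06 and 0.298 CPM in Con and 4.60, 2.37, 3.90, 7.78 and 4.48 CPM in EM. Here the groups were apart, by a narrow margin (log2 fold change 2.44 ± 0.57 (SE), adjusted p = 0.348). Retnlg, Trem1, Mmp8, Fpr2 and Csf3r had log2 fold changes of 2.94 ± 0.82, 2.55 ± 0.62, 3.22 ± 0.85, 2.41 ± 0.58 and 1.38 ± 0.44, all with Con-mGC-3 the highest Con mouse. S100a8 and Mmp8 reached the filter's level of 0.666 CPM in no Con mouse but Con-mGC-3, and Cxcr2 in Con-mGC-3 and Con-mGC-4 alone. S100a8, Mmp8 and Cxcr2 were thus tested because they were high in EM, and their differences were selected in part for that direction. Without Con-mGC-3 the value of S100a8 was 5.23, that of Retnlg 4.83 and that of Csf3r 2.09, and 46 genes then had an adjusted p under 0.05, 44 of them higher in EM. Of the 46, 23 stand on the leukocyte and cytokine lists used here. The neutrophil, macrophage, lymphocyte, pan-leukocyte and cytokine lists hold 23, 25, 20, 23 and 35 of the 17229 genes tested with all mice. Con-mGC-3 held the largest leukocyte sums of Con, so leaving it out widens the differences of such genes. The direction and kind of the genes then called follow in part from that choice and are no test of them. In bulk RNA, more cells of a type and more RNA per cell cannot be told apart.

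Summed over all 30 genes, the neutrophil list came to 152, 139.9, 281, 200.4 and 149 CPM in Con and 309, 232, 315, 528 and 466 CPM in EM. Con-mGC-3 at 281 CPM exceeded EM-mGC-2 at 232 CPM, and the rest of the mice were apart. The largest CPM on the list was that of Slfn4, at 60.9 and 59.01 CPM in Con and EM, which did not follow the rest and made up a large part of the sum. The genes with no reads in any Con mouse were Cxcr1 (0 reads in Con and 2 in EM) and Elane (0 and 7), and Ly6g, the surface marker of mouse neutrophils, had 4 reads in Con and 50 in EM. The part that blood left in the isolate has in these values was not tested. Red blood cell genes, also a sign of blood, summed to 4989 ± 914 CPM in Con and 7343 ± 5882 CPM in EM (SD, n = 5 mice each), with EM-mGC-3 far above the rest, and Hba-a1, an alpha globin gene with a near-identical copy, had a log2 fold change of 0.53 ± 0.41 that turned to -0.08 without that mouse. The neutrophil sums were highest in EM-mGC-4 and EM-mGC-5, whose red blood cell sums (4954 and 5174 CPM) lay within the Con range.

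**Figure D4:**
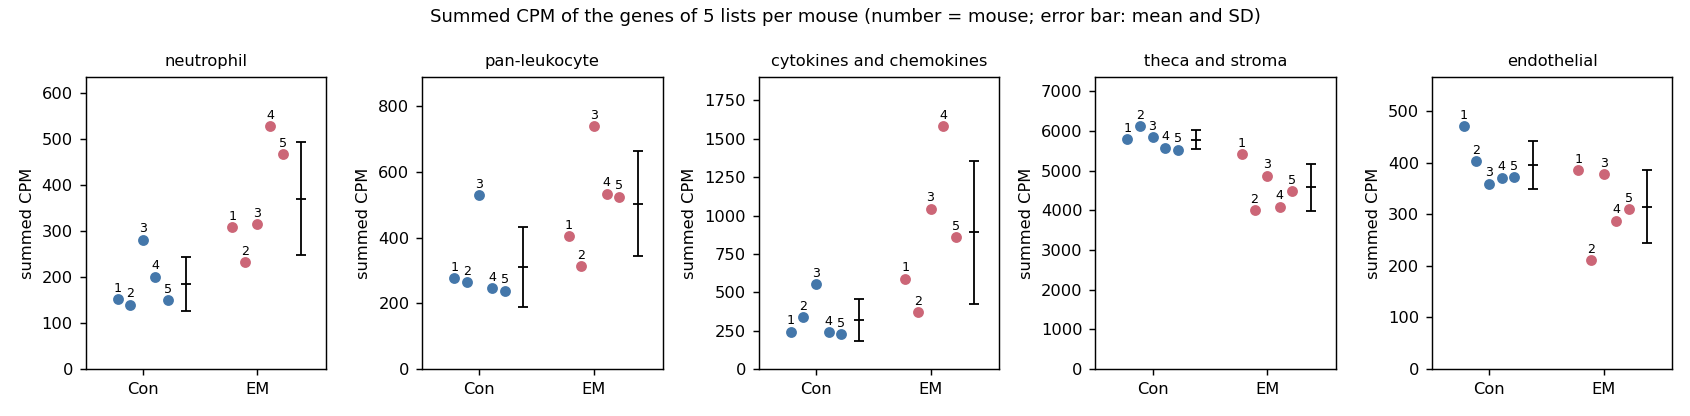
Summed CPM (y axis, from 0) of the genes of 5 lists in each Con and EM mouse (x axis), with the mouse number at each point and the mean and SD as black bars. The neutrophil, pan-leukocyte and cytokine sums of EM mice lie above those of Con mice other than Con-mGC-3, and the theca and stroma sums of all EM mice (3998 to 5419 CPM) lie below those of all Con mice (5533 to 6132 CPM).

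Genes shared by most leukocytes gave a similar picture. All 23 of the pan-leukocyte list were tested and all 23 had a fitted value above 0, with 13 at an unadjusted p under 0.05 and a median log2 fold change of 0.77. Leaving out 1 library gave medians from 0.58 (without EM-mGC-3) to 1.01 (without Con-mGC-3). Sums were 277, 264, 529, 246 and 239 CPM in Con and 405, 313, 741, 534 and 525 CPM in EM, so that Con-mGC-3 was above EM-mGC-1, EM-mGC-2 and just above EM-mGC-5. The largest CPM was that of Lcp1, an actin-bundling protein (33.2 and 40.6 CPM, log2 fold change 0.29 ± 0.20, and 0.47 without Con-mGC-3). Itgb2, the beta2 integrin of leukocytes, was at 10.98, 11.1, 34.4, 13.5 and 10.3 CPM in Con and 27.5, 25.95, 71.02, 41.1 and 41.4 CPM in EM. Con-mGC-3 lay within the EM range and the other Con mice below it (log2 fold change 1.36 ± 0.37 (SE), adjusted p = 0.379). Srgn, the granule proteoglycan serglycin, had 16.4 and 47.1 CPM (log2 fold change 1.52 ± 0.37). The number of members at an unadjusted p under 0.05 was 18 without Con-mGC-3, at least 10 without any other library, and 5 without Con-mGC-1 and EM-mGC-3 together.

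Of the macrophage and monocyte list, 25 of 26 genes were tested, 22 were higher and 10 of these had an unadjusted p under 0.05 (median 0.51), a count that ran from 6 (without EM-mGC-3) to 18 (without EM-mGC-2) with a library left out. The median then ran from 0.34 (without EM-mGC-4) to 0.67 (without EM-mGC-2). The lipopolysaccharide co-receptor Cd14 was at 11.1, 15.6, 32.2, 13.3 and 10.8 CPM in Con and 33.2, 30.4, 123, 61.95 and 47.9 CPM in EM. EM-mGC-3 was highest and Con-mGC-3 lay inside the EM range (log2 fold change 1.84 ± 0.41 (SE), adjusted p = 0.348). Lyz2, lysozyme, and Itgam, the CD11b integrin chain, had log2 fold changes of 1.14 ± 0.31 and 1.70 ± 0.45, and the signalling adaptor Tyrobp had 0.94 ± 0.34. These 3 genes are also made by neutrophils. The list summed to 948, 777, 1133, 711 and 859 CPM in Con and 1079, 633, 1549.7, 1416 and 1137 CPM in EM, with EM-mGC-2 the lowest of all mice. Apoe, with the largest CPM of the list, was at 438 and 411 CPM and is made by GCs as well. Lymphocyte and dendritic cell genes did not share this direction, with 4 of 20 tested genes higher and 16 lower (median -0.32, and 0.05 without Con-mGC-3 and -0.18 without EM-mGC-2). The 3 at an unadjusted p under 0.05 were B cell genes and lower, namely the immunoglobulin mu heavy chain Ighm at 26.04, 12.99, 26.3, 19.6 and 21.2 CPM in Con and 12.7, 9.13, 12.9, 9.07 and 12.4 CPM in EM, without overlap (log2 fold change -0.92 ± 0.20 (SE), adjusted p = 0.348), the kappa light chain Igkc (log2 fold change -1.31 ± 0.35) and the B cell receptor component Cd79b (log2 fold change -1.19 ± 0.40).

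Cytokines and chemokines are secreted by leukocytes and by follicle cells. Of 46 listed genes 35 were tested, 29 were higher in EM and 15 of these had an unadjusted p under 0.05, against none of the 6 lower ones (median log2 fold change 0.88). Of the 11 not tested, 8 had a higher mean in EM, and 3 of the 35 reached 0.666 CPM in at most 2 Con mice and so passed the filter through the EM mice. Leaving out 1 library gave medians from 0.61 (without EM-mGC-3) to 1.39 (without Con-mGC-3). Without Con-mGC-1 and EM-mGC-3 together the median was 0.54, with 8 higher genes at an unadjusted p under 0.05. With a library left out the count ran from 9 (without Con-mGC-5) to 22 (without Con-mGC-3). The list summed to 243, 337, 555, 242 and 229 CPM in Con and 589, 370.3, 1044, 1585 and 862 CPM in EM, where Spp1 had the largest CPM and Con-mGC-3 exceeded EM-mGC-2. Il1b, interleukin-1 beta, was at 3.81, 3.98, 20.6, 6.89 and 2.98 CPM in Con and 32.6, 18.1, 46.4, 43.5 and 46.6 CPM in EM. Only Con-mGC-3 reached the EM range, where EM-mGC-2 was lowest (log2 fold change 2.29 ± 0.49 (SE), adjusted p = 0.348, ENSMUSG00000027398, chr2:129206490-129213059, minus strand). Ccl6, a chemokine of myeloid cells, was at 6.84, 12.3, 44.7, 6.56 and 6.44 CPM in Con and 49.6, 50.7, 204, 112 and 79.9 CPM in EM, with EM-mGC-3 highest and no overlap (log2 fold change 2.69 ± 0.60 (SE), adjusted p = 0.348). Ccl9, another chemokine of the CCL family, was also highest in EM-mGC-3, with Con-mGC-3 inside the EM range (log2 fold change 2.31 ± 0.62). Cxcl2, a neutrophil-attracting chemokine, was at 13.5, 42.9, 94.04, 25.8 and 15.6 CPM in Con and 82.03, 61.8, 203, 162 and 103 CPM in EM. EM-mGC-3 and EM-mGC-4 were highest and Con-mGC-3 lay among the EM mice (log2 fold change 1.67 ± 0.51 (SE), adjusted p = 0.430). The related Cxcl1 was at 8.48, 21.1, 34.01, 17.6 and 12.2 CPM in Con and 18.7, 22.1, 87.9, 46.7 and 19.6 CPM in EM, where only EM-mGC-3 and EM-mGC-4 exceeded Con-mGC-3 (log2 fold change 1.06 ± 0.47 (SE), adjusted p = 0.520, and 0.52 without EM-mGC-3). Il6 rested on the same mouse, with 1.24 ± 0.53 with EM-mGC-3 and 0.54 without it.

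The promoters of Cxcl1 and Cxcl2, chemokine genes that lie near each other, and of Nfkbia, which encodes the NF-kB inhibitor that is itself an NF-kB target, are shown because the 3 genes are induced through this factor and had higher group means in EM. Each line is the 250 bases before the RefSeq start of transcription (GRCm38.p6), 5′ to 3′ on the gene's strand, with matches to the NF-kB motif (GGG, then any 3 bases, then TTCC) on either strand in capitals, where matches may overlap each other. Cxcl1 is from chr5:90890995-90891244 (plus strand), Cxcl2 from chr5:90903649-90903898 (plus strand) and Nfkbia from chr12:55492648-55492897 (minus strand).
Cxcl1: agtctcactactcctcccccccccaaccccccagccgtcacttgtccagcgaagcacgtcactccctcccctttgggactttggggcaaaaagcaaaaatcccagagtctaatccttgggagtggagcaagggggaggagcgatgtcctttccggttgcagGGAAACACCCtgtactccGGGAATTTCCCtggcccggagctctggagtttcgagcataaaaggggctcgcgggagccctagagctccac
Cxcl2: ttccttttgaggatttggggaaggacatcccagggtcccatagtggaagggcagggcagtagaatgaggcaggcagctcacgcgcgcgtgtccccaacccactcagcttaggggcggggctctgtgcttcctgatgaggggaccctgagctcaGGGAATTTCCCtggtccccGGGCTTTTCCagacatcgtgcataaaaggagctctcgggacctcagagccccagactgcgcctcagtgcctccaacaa
Nfkbia: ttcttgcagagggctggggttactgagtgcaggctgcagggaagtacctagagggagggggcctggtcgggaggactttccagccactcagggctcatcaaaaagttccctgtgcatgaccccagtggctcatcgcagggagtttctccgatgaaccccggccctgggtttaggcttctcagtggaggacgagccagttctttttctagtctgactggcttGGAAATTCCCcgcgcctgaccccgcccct
Cxcl1 and Cxcl2 each held 3 matches and Nfkbia 1. The motif stood in 4.65% of the 32851 RefSeq windows of this length, and in 10 of 40 windows of the 35 cytokine and chemokine genes that had one. These matches are descriptions of the sequence, and binding was not measured here.

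Of 24 genes that NF-kB induces or that feed back on it, 23 were tested and 20 were higher in EM, 5 of them at an unadjusted p under 0.05, with 1 of the 3 lower genes at that threshold (median 0.22, and 0.36 without Con-mGC-3 and 0.13 without Con-mGC-5). Nfkbia was at 32.4, 48.4, 91.7, 46.7 and 36.2 CPM in Con and 73.4, 62.2, 138, 130.5 and 90.9 CPM in EM. Con-mGC-3 was again the highest Con mouse and lay within the EM range (log2 fold change 0.95 ± 0.30 (SE), adjusted p = 0.433). Vcam1, the leukocyte adhesion molecule, had 20.5 and 34.8 CPM without overlap (log2 fold change 0.76 ± 0.24), with EM-mGC-2 highest at 55.7 CPM. Nos2, inducible nitric oxide synthase, was lower (34.5 and 25.4 CPM, log2 fold change -0.44 ± 0.14). The count of higher genes ran from 3 (without any of 3 libraries) to 9 (without Con-mGC-3) with a library left out. Immediate early genes, which cells switch on within minutes of a stimulus and also during dissociation of tissue, were higher for 30 of 33 tested, 11 at an unadjusted p under 0.05 (median 0.40). The median was 0.23 and the count 8 without EM-mGC-4, whose sum of 5196 CPM was far above the 2580 to 3007 CPM of the other EM mice. Ier3 was at 12.3, 13.4, 27.1, 13.6 and 8.23 CPM in Con and 28.97, 17.3, 27.2, 96.00 and 28.4 CPM in EM (log2 fold change 1.41 ± 0.45 (SE), adjusted p = 0.437, and 0.77 without EM-mGC-4). Fos (log2 fold change 0.79 ± 0.25) and Junb (log2 fold change 0.90 ± 0.30), which form the AP-1 factor, and Btg2, which slows cell division (log2 fold change 1.15 ± 0.36), were also highest in EM-mGC-4, and without it were at 0.51, 0.59 and 0.64. The time between dissection and lysis is not given in the sources used here, and the part of dissociation in these values was not tested.

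Of 32 tested genes that interferon induces, 22 were lower in EM and 10 higher (median -0.27), with 5 lower and 1 higher at an unadjusted p under 0.05. Mx2, an antiviral GTPase, was at 9.34, 7.97, 11.1, 10.4 and 16.9 CPM in Con and 7.38, 5.32, 3.90, 6.62 and 7.10 CPM in EM, and all EM mice were below all Con mice (log2 fold change -0.87 ± 0.24 (SE), adjusted p = 0.376). Irf1, the 1 higher gene at that threshold, had 38.6 and 51.1 CPM (log2 fold change 0.40 ± 0.16). The number of lower genes ran from 1 (without Con-mGC-5) to 8 (without Con-mGC-1 or EM-mGC-1) with a library left out. Without EM-mGC-2 the balance at that threshold turned, with 6 higher and 3 lower (median -0.14), and without Con-mGC-5 the median was -0.17. With limma voom and quality weights, 5 were higher and 5 lower (median -0.08).

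The basal lamina that separates GCs from the theca is built from type IV collagen, laminins, nidogens and perlecan. All 30 listed genes were tested, 25 were lower in EM and 5 higher, and 9 of the lower ones and none of the higher had an unadjusted p under 0.05 (median -0.38). With a library left out, the count of lower genes ran from 7 (without Con-mGC-2 or EM-mGC-4) to 13 (without EM-mGC-1). The summed CPM did not follow, at 4946 ± 282 CPM in Con and 4663 ± 853 CPM in EM (SD, n = 5 mice each), and the gene with most reads, Sparc, is not among the 9. Col4a4, given above, and Col4a3, which are transcribed from a shared promoter region and assemble together, had log2 fold changes of -1.02 ± 0.18 and -0.69 ± 0.23. Lamb1, a laminin beta chain, was at 289, 270.0, 259, 264 and 343 CPM in Con and 241, 202, 179.6, 215 and 222 CPM in EM. The groups did not overlap, with EM-mGC-3 lowest (log2 fold change -0.43 ± 0.11 (SE), adjusted p = 0.376). Lama2, a laminin alpha chain, had 30.9 and 21.5 CPM (log2 fold change -0.52 ± 0.13), and Frem2, an extracellular protein of basement membranes, 1.82 and 0.860 CPM without overlap (log2 fold change -1.07 ± 0.24). Among the integrins, the cell's receptors for this matrix, 11 of 18 tested were lower and 5 of these had an unadjusted p under 0.05, including Itgb4 (log2 fold change -0.77 ± 0.18) and its partner Itga6 (log2 fold change -0.30 ± 0.09), the laminin receptor of epithelia, each without overlap. The 2 higher ones at that threshold were Itgb3 (log2 fold change 0.68 ± 0.29), found on platelets and macrophages, and Itgb7 (log2 fold change 0.86 ± 0.39), found on leukocytes. Neither was at that threshold without Con-mGC-1, Con-mGC-4, Con-mGC-5, EM-mGC-4 or EM-mGC-5.

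Interstitial collagens and elastic fibre genes were lower in 27 of 38 tested and higher in 11, with 15 lower and 2 higher at an unadjusted p under 0.05 (median -0.34). Leaving out single libraries gave 11 to 16 lower genes at that threshold. Col1a1, the alpha 1 chain of type I collagen, was at 483, 356, 351, 407 and 378 CPM in Con and 291, 112, 171, 197 and 242 CPM in EM. Every EM mouse was below every Con mouse, and EM-mGC-2 was lowest (log2 fold change -0.96 ± 0.21 (SE), adjusted p = 0.348). Col3a1 was at 609, 688, 608, 637 and 726 CPM in Con and 602, 253, 444, 411 and 472 CPM in EM, where EM-mGC-1 came close to the Con mice without overlap (log2 fold change -0.58 ± 0.19 (SE), adjusted p = 0.443). Col1a2 (log2 fold change -0.58 ± 0.18), the microfibril protein Fbn1 (log2 fold change -0.40 ± 0.11), Mfap4 (log2 fold change -0.88 ± 0.27) and Ltbp2 (log2 fold change -0.84 ± 0.21) were lower with groups that overlapped. The 2 higher genes were Fn1, fibronectin, at 193, 231, 372, 248 and 193 CPM in Con and 271, 374, 625, 554 and 292 CPM in EM (log2 fold change 0.77 ± 0.26 (SE), adjusted p = 0.456), and Lox, the collagen cross-linking enzyme, at 12.6 and 24.2 CPM (log2 fold change 0.94 ± 0.28, and 0.58 without EM-mGC-4). For Fn1, EM-mGC-3 and EM-mGC-4 were highest and Con-mGC-3 lay within the EM range.

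Theca and stroma cells were followed by a list that shares genes with the matrix list. Of 23 theca and stroma genes, 10 of which are matrix genes also counted above, 18 were lower and 9 of these had an unadjusted p under 0.05, against none of the 5 higher (median -0.34). The sums were 5789, 6132, 5852, 5582 and 5533 CPM in Con and 5419, 3998, 4872, 4094 and 4494 CPM in EM, and all EM mice were below all Con mice. Without the 10 matrix genes, 9 of 13 were lower, 3 of them at that threshold, and the sums ran from 2398 to 3188 CPM in Con and from 2136 to 2916 CPM in EM and overlapped. The largest CPM was that of Lhcgr, the LH receptor gene, which GCs also make (824 and 894 CPM). Aldh1a1, a retinoic acid enzyme of theca and stroma, was at 617, 657, 745, 663 and 769 CPM in Con and 364, 359, 624, 565 and 432 CPM in EM. EM-mGC-3 alone overlapped the Con range (log2 fold change -0.56 ± 0.17 (SE), adjusted p = 0.421). Nr2f2, a transcription factor of stromal cells, was at 51.6, 46.6, 48.1, 44.01 and 57.6 CPM in Con and 39.1, 34.2, 38.9, 42.2 and 41.9 CPM in EM without overlap (log2 fold change -0.34 ± 0.10 (SE), adjusted p = 0.418). No gene of the theca, smooth muscle or endothelial lists was at 0 in any library. The part that the share of theca and stroma cells in each isolate has in the matrix values was not tested.

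Smooth muscle genes were lower for 11 of 13, 5 of them at an unadjusted p under 0.05 (median -0.40, and -0.26 without EM-mGC-2 and -0.26 without EM-mGC-4). They summed to 588, 424, 434, 397 and 485 CPM in Con and 411, 221, 459, 261 and 368 CPM in EM, and EM-mGC-2 was lowest. Cnn1, calponin, was at 13.5, 10.8, 11.9, 11.5 and 12.2 CPM in Con and 7.59, 3.88, 8.71, 5.46 and 7.03 CPM in EM, and the groups did not overlap (log2 fold change -0.88 ± 0.20 (SE), adjusted p = 0.348). Lmod1, leiomodin, was also apart (7.21 and 4.16 CPM, log2 fold change -0.79 ± 0.20), while Acta2, smooth muscle actin and the gene with most reads of the list, was at 190.2 and 142 CPM (log2 fold change -0.42 ± 0.26, adjusted p = 0.620, and -0.24 without Con-mGC-1 and -0.66 without EM-mGC-3). Of 20 endothelial genes 19 were lower, 4 at an unadjusted p under 0.05 (median -0.27), which became 8 without EM-mGC-1 or without EM-mGC-3 and 3 without EM-mGC-2 or without EM-mGC-5. The angiopoietin receptor Tek had 10.5, 11.6, 12.3, 9.81 and 13.7 CPM in Con and 9.33, 7.23, 8.63, 6.41 and 8.48 CPM in EM, with every EM mouse below every Con mouse (log2 fold change -0.53 ± 0.16 (SE), adjusted p = 0.418). Its homologue Tie1 (log2 fold change -0.71 ± 0.21) and the junction protein Cdh5 (log2 fold change -0.49 ± 0.17) had groups that overlapped, and Eng, with most reads, was at 55.5 and 46.1 CPM. Endothelial sums were 472, 404, 359.8, 371 and 372 CPM in Con and 385, 212, 377, 288 and 310.5 CPM in EM, with EM-mGC-2 lowest and Con-mGC-1 highest.

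Of 24 genes of GC identity, 18 were lower and 6 higher (median -0.11, and 0.02 without EM-mGC-4), with 2 lower and 1 higher at an unadjusted p under 0.05, against 4.22% and 5.22% of all genes tested. Without EM-mGC-2 the median was -0.31, with 23 lower and 4 of them at that threshold. Esr2, estrogen receptor beta, was at 146, 181, 137, 201 and 260.0 CPM in Con and 127, 176, 115, 75.7 and 144 CPM in EM. EM-mGC-4 was lowest, Con-mGC-5 highest, and the groups overlapped (log2 fold change -0.54 ± 0.22 (SE), adjusted p = 0.510). Grb14, an adaptor that inhibits the insulin receptor, was at 372 and 275 CPM (log2 fold change -0.44 ± 0.14). Steroidogenic genes were split, with 13 of 21 higher, where Tspo, the mitochondrial translocator protein, was at 30.97, 29.4, 30.8, 26.6 and 31.5 CPM in Con and 43.4, 28.6, 66.5, 75.7 and 46.1 CPM in EM, with EM-mGC-2 inside the Con range (log2 fold change 0.80 ± 0.21 (SE), adjusted p = 0.376), and Srd5a1, steroid 5-alpha reductase, at 17.6 and 13.3 CPM (log2 fold change -0.41 ± 0.16, and -0.25 without Con-mGC-5). Oocyte genes, a measure of oocytes carried into the isolate, were lower for 19 of 21 with none at an unadjusted p under 0.05, and their sum ran from 289.6 to 1411 CPM within EM alone.

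Genes of the ovulation response and of luteal cells were mostly higher. Of 26 tested ovulation genes 18 were higher, 4 at an unadjusted p under 0.05, and 1 of the lower ones was at that threshold (median 0.35). Without EM-mGC-4 the median was 0.16 and without Con-mGC-1 0.20, and the count of higher genes ran from 3 (without any of 3 libraries) to 9 (without Con-mGC-2 or EM-mGC-2) with a library left out. Adamts4, a protease of the cumulus matrix, was at 3.81, 4.72, 5.69, 4.31 and 7.16 CPM in Con and 7.59, 10.8, 6.97, 14.6 and 10.1 CPM in EM, with 1 EM mouse inside the Con range (log2 fold change 0.96 ± 0.24 (SE), adjusted p = 0.353). Cd44, the hyaluronan receptor, which leukocytes also carry, was at 17.5 and 37.8 CPM (log2 fold change 1.11 ± 0.37), and Ptgs2, the prostaglandin synthase of ovulation, at 5.34 and 12.9 CPM (log2 fold change 1.27 ± 0.78 (SE), adjusted p = 0.614, and 0.47 without EM-mGC-4 and 2.18 without Con-mGC-2). The progesterone receptor gene Pgr was at 1.51, 7.29, 2.88, 3.38 and 1.73 CPM in Con and 0.696, 2.23, 1.91, 1.77 and 1.24 CPM in EM, with Con-mGC-2 highest (log2 fold change -1.09 ± 0.45 (SE), adjusted p = 0.510, and -0.59 without Con-mGC-2).

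Of 18 luteal genes 14 were higher, 7 at an unadjusted p under 0.05 (median 0.51, and 0.25 without EM-mGC-4), and with a library left out this count ran from 2 (without Con-mGC-5) to 9 (without Con-mGC-3 or EM-mGC-2). Sfrp4, a secreted WNT antagonist of luteinizing cells, was at 1011, 1008, 1645, 756 and 529.9 CPM in Con and 2705, 1125, 688, 2452 and 2632 CPM in EM. The EM mice fell into a high set of 3 and a pair, EM-mGC-2 and EM-mGC-3, within the Con range (log2 fold change 0.96 ± 0.39 (SE), adjusted p = 0.510). Rgcc, a cell cycle regulator, was at 38.7, 44.1, 80.03, 35.1 and 17.3 CPM in Con and 86.3, 38.8, 84.6, 299 and 109.9 CPM in EM (log2 fold change 1.52 ± 0.50 (SE), adjusted p = 0.449, and 0.89 without EM-mGC-4). Ptgfr, the prostaglandin F receptor, had 127 and 219 CPM (log2 fold change 0.79 ± 0.33), and Timp1, a metalloproteinase inhibitor, 62.3 and 112 CPM (log2 fold change 0.84 ± 0.33). Parm1 (log2 fold change 0.86 ± 0.34), the transcriptional co-regulator Cited2 (log2 fold change 0.56 ± 0.23) and the CDK inhibitor Cdkn1a (log2 fold change 0.92 ± 0.29) completed the 7, with EM-mGC-4 highest for all 3. Without EM-mGC-4, Parm1 was at 0.42 and Cited2 at 0.30.

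The study asked how epoxyeicosatrienoic acids (EETs), lipid mediators made from arachidonic acid by cytochrome P450 enzymes and cleared by soluble epoxide hydrolase, bear on GCs in endometriosis. Of 24 genes of this pathway 8 passed the filter, 3 higher and 5 lower, and 7 cytochrome genes had no reads in any library. Ephx2, soluble epoxide hydrolase (ENSMUSG00000022040, chr14:66321823-66361949, minus strand), was at 1080.0, 1069.9, 1088, 677 and 573 CPM in Con and 1442, 1032, 1153, 2266 and 1472 CPM in EM. EM-mGC-4 was highest, Con-mGC-4 and Con-mGC-5 were lowest, and EM-mGC-2 lay within the Con range (log2 fold change 0.71 ± 0.25 (SE), adjusted p = 0.462). The log2 fold change stayed between 0.51 and 0.82 with a library left out. Ephx1, the microsomal epoxide hydrolase, differed the other way, at 174, 143, 169.8, 162 and 221 CPM in Con and 116, 96.1, 156, 140.4 and 102 CPM in EM, where EM-mGC-3 reached the Con range (log2 fold change -0.51 ± 0.15 (SE), adjusted p = 0.430). Cyp2s1, a P450, was also lower (63.8 and 43.4 CPM, log2 fold change -0.56 ± 0.20 (SE), adjusted p = 0.465, and -0.36 without Con-mGC-1). Among 14 genes of the polycomb repressive complex 2, which methylates histone H3 at lysine 27, 6 were higher and 8 lower, and none had an unadjusted p under 0.05. Its catalytic subunit gene Ezh2 was at 75.9, 76.00, 74.6, 71.98 and 80.8 CPM in Con and 66.4, 96.99, 66.7, 55.7 and 74.8 CPM in EM (log2 fold change -0.07 ± 0.13 (SE), adjusted p = 0.872), with EM-mGC-2 highest and EM-mGC-4 lowest of all 10 mice.

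Genes of the BCL2 family, which set the threshold of apoptosis, were higher for 13 of 15 tested, 5 at an unadjusted p under 0.05 (median 0.24), and at least 3 with any library left out. Besides Bcl2l11 these included Bax, a pore-forming member, at 32.5, 34.2, 39.02, 33.01 and 31.6 CPM in Con and 42.5, 42.1, 33.2, 48.2 and 45.7 CPM in EM (log2 fold change 0.31 ± 0.11 (SE), adjusted p = 0.465) and the survival factor Mcl1 at 137 and 184 CPM (log2 fold change 0.42 ± 0.15), so that members of both kinds were higher. Of the CDK inhibitors and p53 targets, 16 of 27 were higher and 11 lower, with 5 higher at an unadjusted p under 0.05, and at least 3 with any library left out. Cdkn1a, which encodes p21, was at 23.4, 18.7, 26.6, 17.1 and 9.96 CPM in Con and 33.4, 19.1, 28.8, 51.9 and 47.4 CPM in EM. EM-mGC-4 and EM-mGC-5 were highest and EM-mGC-2 lay among the Con mice (log2 fold change 0.92 ± 0.29 (SE), adjusted p = 0.437). Gadd45a, a stress gene, followed (log2 fold change 0.93 ± 0.37, and 0.62 without EM-mGC-4), and H2ax, a histone variant of the DNA damage response, was at 39.2 and 38.97 CPM (adjusted p = 0.990). Proliferation genes were lower for 32 of 41 with none at an unadjusted p under 0.05 (median -0.10, -0.02 without Con-mGC-1 and 0.05 without EM-mGC-4). Without EM-mGC-2 the median was -0.25, and 37 were lower with 8 at that threshold. The PI3K, AKT and mTOR components were split (16 of 38 higher), with 220.5 and 226 CPM in Con and EM for Akt1, 101 and 87.9 CPM for Mtor and 242 and 234 CPM for Pik3r1, and log2 fold changes of 0.04 ± 0.11, -0.20 ± 0.13 and -0.05 ± 0.15. With a library left out, that of Akt1 ran from 1.7e-05 (without EM-mGC-3) to 0.12 (without Con-mGC-1) and that of Pik3r1 from -0.17 (without EM-mGC-4) to 0.03 (without EM-mGC-2), and Mtor was at -0.11 without EM-mGC-3. The kinase gene Sgk1 (log2 fold change 0.92 ± 0.35) and the mTOR inhibitor Deptor (log2 fold change 0.73 ± 0.30) were higher at an unadjusted p under 0.05, and Tsc2, the brake on mTOR complex 1, was lower (log2 fold change -0.26 ± 0.12). Deptor was at 0.41 without EM-mGC-4. Of the PI3K, AKT and mTOR genes, 4 were higher and 2 lower at that threshold, and with limma voom and quality weights 6 were higher and 9 lower. With a library left out, the count of higher PI3K, AKT and mTOR genes at that threshold ran from 0 (without Con-mGC-5) to 4 (without any of 4 libraries), and that of lower ones from 0 (without any of 5 libraries) to 4 (without any of 3 libraries).

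Antioxidant genes were higher for 29 of 36 tested, 6 at an unadjusted p under 0.05 with 1 lower (median 0.16, and 0.10 without EM-mGC-3), a count that ran from 2 (without Con-mGC-4) to 11 (without EM-mGC-2) with a library left out. Prdx5, a peroxiredoxin, was at 59.9, 52.8, 70.7, 55.1 and 49.7 CPM in Con and 67.96, 58.9, 117, 107 and 84.3 CPM in EM. EM-mGC-3 and EM-mGC-4 were highest and EM-mGC-1 and EM-mGC-2 lay within the Con range (log2 fold change 0.59 ± 0.18 (SE), adjusted p = 0.430). Prdx2 (log2 fold change 0.52 ± 0.18) and the ferritin light chain Ftl1 (log2 fold change 0.55 ± 0.21) were also highest in EM-mGC-3 and EM-mGC-4. Heat shock and unfolded protein response genes were higher for 24 of 30, 4 at an unadjusted p under 0.05, and 1 without Con-mGC-2, Con-mGC-5 or EM-mGC-4, among them the chaperone Hspa8 (1069 and 1378 CPM, log2 fold change 0.37 ± 0.15). Cholesterol synthesis genes were higher for 19 of 25, 2 at that threshold (1 without Con-mGC-4, Con-mGC-5, EM-mGC-1, EM-mGC-3 or EM-mGC-4) including Ebp, a sterol isomerase (log2 fold change 0.46 ± 0.16). Hypoxia and glycolysis genes had a median of 0.03, and the 1 gene at that threshold, the hexokinase Hk1, was lower (log2 fold change -0.25 ± 0.09). With a library left out, the count of lower genes ran from 0 (without Con-mGC-1 or Con-mGC-2) to 3 (without EM-mGC-2), beside up to 2 higher ones.

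Transcripts of mitochondrial DNA and of ribosomal proteins were mostly higher, and EM-mGC-3 held the highest values. All 13 mitochondrial protein genes were higher, 5 at an unadjusted p under 0.05 (median 0.72, and 0.31 without EM-mGC-3). The ATP synthase subunit gene mt-Atp6 was at 266, 285, 224, 202 and 429 CPM in Con and 776, 426, 3618, 1078 and 679 CPM in EM. EM-mGC-3 was highest by a wide margin, and the groups still nearly parted without it (log2 fold change 2.23 ± 0.51 (SE), adjusted p = 0.348, and 1.40 without EM-mGC-3). For mt-Nd3 the difference of 2.76 ± 0.81 became 0.92, for mt-Co3 2.02 ± 0.60 became 1.05, and for mt-Co2 1.34 ± 0.45 became 0.62. Cytosolic ribosomal protein genes were higher for 77 of 83 tested, 15 at an unadjusted p under 0.05 (median 0.27), and the count ran from 7 (without Con-mGC-4 or Con-mGC-5) to 47 (without Con-mGC-1) with a library left out, and was 9 with a median of 0.13 without EM-mGC-3. Rps14 was at 383, 438, 419, 399 and 391 CPM in Con and 446, 475, 899, 612 and 479.9 CPM in EM, without overlap and with EM-mGC-3 highest (log2 fold change 0.52 ± 0.18 (SE), adjusted p = 0.462, and 0.31 without EM-mGC-3). Nuclear genes of the respiratory chain were higher for 72 of 78, 22 at that threshold (median 0.22), a count that ran from 7 (without EM-mGC-3) to 31 (without Con-mGC-1) with a library left out. The median was 0.11 without EM-mGC-3. Cox7c (log2 fold change 0.36 ± 0.11) and Uqcrh (log2 fold change 0.41 ± 0.13), subunits of complexes IV and III, were apart between the groups, with Uqcrh at 0.26 without EM-mGC-3. Reads of ribosomal protein genes may be shared with their many processed copies, and poly(A) selection captures mitochondrial transcripts unevenly, so these levels are less certain than those of other genes.

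**Figure D5:**
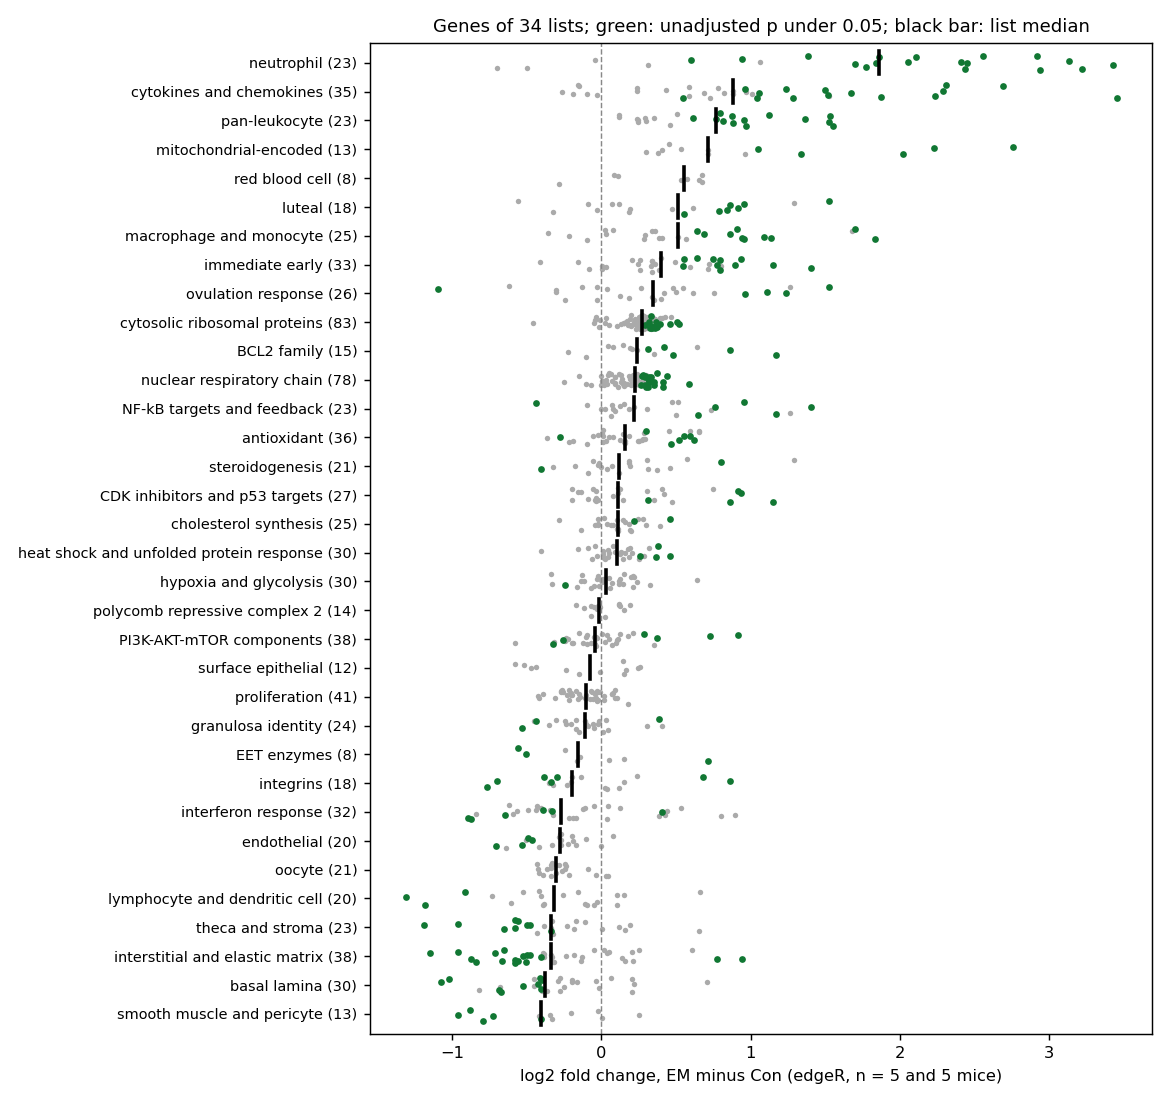
Log2 fold change of EM over Con (x axis) for the tested genes of 34 lists (y axis, number of tested genes in brackets), sorted by list median. Green points have an unadjusted p under 0.05, grey points do not, and black bars are list medians. Neutrophil genes (median 1.86) and cytokines (0.88) lie farthest to the right, and smooth muscle, basal lamina and matrix genes (-0.40 to -0.34) to the left.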

How the data were processed

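The labels give the group and replicate number of each library, and the paper states that 10 mice were used, 5 sham-operated and 5 EM. Each library was therefore taken as the GCs of 1 mouse (n = 5 Con and 5 EM). The authors deposited 1 table of whole-number counts of reads per gene. Per the submitters' processing notes the authors used fastp, HISAT2 and StringTie with GRCm39. Their versions, whether strand was used in counting, and how reads with several matches were handled are not given in the sources used here. All 10 columns were used, and 0 columns of per-sample values were left out.

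From the counts as deposited, genes were filtered (filterByExpr, 17229 of 57010 kept, a level of 0.666 CPM in at least 5 libraries), scaled by TMM and tested with edgeR 4.0.16 (quasi-likelihood test, R 4.3.3), with Benjamini-Hochberg adjustment over all genes tested and a threshold of 0.05. Depth was 14229123 to 15999234 reads per library. DESeq2 1.42.0, which the study names, and limma 3.58.1 (voom with quality weights) were alternatives, as were other scalings, filters, gene classes, a block on the replicate number and each library left out. The scripts were tested on simulated data. Named genes were the 15 protein-coding genes with the smallest p and the 10 with the largest difference in each direction (mean of at least 4 CPM), genes the study asks about, and leading members of 34 lists drawn from general knowledge of ovarian, immune and stress genes. Not every gene that this rule takes is printed, and some items are not reported here. The members and lists were chosen with earlier results of these data known. Promoter sequences are from RefSeq (GRCm38.p6), with 35 of 46 cytokine genes and 18 of 24 NF-kB genes matched by symbol; gene positions are those of the count table. The 6 libraries of cultured cells were not used here.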

Additional observations from a re-analysis of the deposited data

Results flagged for a closer look

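Each value below was marked because 1 mouse lay far from the other 4 of its group, by a gap of more than 0.71 of the group's range (Dixon's critical value for 5 samples). Of 358 groups of 5 values examined, 53 were marked. Chance alone marks about 1 in 20 where values are independent and normally distributed. Most of these values are CPM of genes that vary together, many named for their differences, so the 53 cannot be set against that rate.

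Con-mGC-3 was the highest Con mouse in 21 of them, nearly all of leukocyte or cytokine genes. Its pan-leukocyte list summed to 529 CPM, where the other Con mice had 239 to 277 CPM, and its immediate early list to 3015 CPM, where they had 2168 to 2340 CPM. Single genes were Asprv1 at 3.25 CPM, Il1b at 20.6 CPM, Ccl6 at 44.7 CPM, Cd14 at 32.2 CPM, S100a9 at 19.9 CPM, Chil3 at 9.32 CPM, S100a8 at 7.25 CPM, Retnlg at 8.19 CPM, Trem1 at 7.32 CPM, Csf3r at 18.4 CPM, Fpr2 at 2.06 CPM, Mmp8 at 1.88 CPM, Tyrobp at 20.1 CPM, Itgb2 at 34.4 CPM, Srgn at 31.9 CPM, Cd44 at 35.9 CPM, Ier3 at 27.1 CPM, Nfkbia at 91.7 CPM and Lcp1 at 48.9 CPM.

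EM-mGC-3 was marked 13 times. It had 21.8% of counts on mitochondrial genes, 22.8% of counts on its 10 most counted genes, 17619 CPM on red blood cell genes, 254440.0 CPM on mitochondrial protein genes, where the other EM mice had 78533 to 111110.0 CPM, and 11752 CPM on nuclear genes of the respiratory chain. Single genes were mt-Atp6 at 3618 CPM, mt-Nd3 at 224 CPM, Il6 at 17.9 CPM, Cd44 at 71.1 CPM, Uqcrh at 168 CPM, mt-Co3 at 5827 CPM, mt-Co2 at 4185 CPM and Hba-a1 at 7852 CPM.

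EM-mGC-4 was marked 8 times, with 5196 CPM on immediate early genes and, among single genes, Spp1 at 793 CPM, Mmp8 at 14.5 CPM, Rgcc at 299 CPM, Parm1 at 171 CPM, Fos at 492 CPM, Ier3 at 96.0 CPM and Ptgs2 at 34.7 CPM. Con-mGC-1 had the fewest genes with a read, 22071, where the other Con mice had 26085 to 27642, and was the highest Con mouse for H2ax at 56.4 CPM, Akt1 at 266 CPM and Eng at 81.0 CPM. In Con-mGC-4 these were Cdh13 at 14.4 CPM and mt-Co2 at 996 CPM, and in Con-mGC-5 Cacnb2 at 12.8 CPM and Srd5a1 at 24.9 CPM. EM-mGC-2 had 12616 CPM on heat shock and unfolded protein response genes, where the other EM mice had 8679.7 to 9736 CPM, and Vcam1 at 55.7 CPM. EM-mGC-5 was highest for Gnas at 25.8 CPM.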

How the results depend on the processing

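The count of genes at an adjusted p under 0.05 was 0 with edgeR under RLE or upper-quartile scaling, with at least 10 reads in every library, without mitochondrial genes and for protein-coding genes alone. It was 113 with DESeq2, 224 with voom and quality weights and 4 without a filter on low counts (Col6a4, Ltb4r1, Wfdc17 and Alox15), and it ran from 0 to 46 with each library left out, where 46 was without Con-mGC-3 and 1 without EM-mGC-1. Genes at an unadjusted p under 0.05 numbered 2652 without the filter (35663 genes tested), 3958 with voom, and from 930 (without Con-mGC-5) to 2515 (without EM-mGC-2) with each library left out, with 978 without Con-mGC-4. Without Con-mGC-1 and EM-mGC-3 together, an alternative chosen after seeing the data, they were 0 and 1854. With the replicate number as a block, 2 genes had an adjusted p under 0.05 (Ltbp4 and Itgam) and 1364 an unadjusted p under 0.05. Same-numbered mice did not deviate together (correlations of -0.239, -0.194, 0.0796, -0.0368 and 0.229), so the numbers do not pair the samples. Of 141 genes followed over 20 alternatives, 133 kept their sign in each, and 52 had an adjusted p under 0.05 with DESeq2 and 57 with voom. The 8 exceptions were as follows. With voom, H2ax was at 0.022, Pik3r1 at 0.049, Slfn4 at 0.094 and Apoe at 0.062, and without the filter H2ax was at 0.0054 (log2 fold changes). Without both libraries, H2ax was at 0.043, Slfn4 at 0.027, Apoe at 0.034 and Hba-a1 at -0.030. With each library left out, the value ran from -0.203 to 0.0076 for Ezh2, from -0.134 to 0.164 for H2ax, from -0.169 to 0.034 for Pik3r1, from -0.380 to 0.0056 for Inha, from -0.346 to 0.143 for Fshr, from -0.170 to 0.137 for Slfn4, from -0.239 to 0.071 for Apoe and from -0.081 to 0.742 for Hba-a1. The neutrophil list's median was 2.82 without Con-mGC-3 and 1.70 without Con-mGC-1. The list medians of GC identity, surface epithelium, lymphocytes, red blood cells, heat shock, hypoxia, proliferation and polycomb genes changed sign without some library, each being within 0.13 of 0 there. The cause of these changes was not tested. The smallest difference that 5 mice a group can show was not measured here, and genes of a few reads, such as Cxcr1 and Elane, did not pass the main filter.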

Other observations

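Car3 and Cfd, both made by fat cells, were among the named genes with large differences that were lower in EM. Car3, a carbonic anhydrase abundant in fat, was at 29.4, 1.84, 30.8, 5.37 and 2.57 CPM in Con and 2.79, 1.38, 1.58, 0.409 and 1.45 CPM in EM. Cfd, adipsin, was at 28.0, 0.306, 9.94, 3.38 and 1.55 CPM in Con and 1.25, 0.789, 2.74, 0 and 0.276 CPM in EM. Both were high in Con-mGC-1 and Con-mGC-3, and without Con-mGC-1 the log2 fold change of Cfd was -1.93 where it was -3.12 with all mice.

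Other genes of fat cells were looked at after these values were seen, and not all had this pattern. Adipoq, adiponectin, which fat cells make almost alone and which had too few reads to be tested, was at 3.22, 0.0613, 3.50, 0.928 and 0.418 CPM in Con and 0.209, 0.460, 0.166, 0.0682 and 0.620 CPM in EM, so that the same Con mice were highest. Fabp4, a fatty acid carrier of fat cells and macrophages, was at 11.5, 2.64, 12.4, 5.10 and 1.61 CPM in Con and 3.06, 2.37, 7.14, 7.85 and 3.58 CPM in EM, with the same Con mice highest and 2 EM mice next. Plin1, which coats lipid droplets, was at 19.1, 11.5, 16.1, 11.7 and 18.1 CPM in Con and 8.08, 6.05, 14.9, 12.1 and 12.2 CPM in EM, and its groups overlapped. Lep, also with too few reads to be tested, was at 0.855 CPM in Con-mGC-1 and 0.375 CPM in Con-mGC-3, above all other mice. Thrsp, named above, was at 19.7, 15.4, 4.88, 5.50 and 9.01 CPM in Con. It was highest in Con-mGC-1, but Con-mGC-3 was the lowest Con mouse. Scd1 and Lpl, enzymes of fat metabolism that other cells also make, had log2 fold changes of -0.10 and -0.13 and had it in part or not at all. Scd1 was highest in Con-mGC-1 at 78.0 CPM, but was at 55.0 CPM in Con-mGC-3, within the range of the other mice. Lpl was at 137 CPM in EM-mGC-2, 135 CPM in Con-mGC-4 and 133 CPM in Con-mGC-1. The ovary lies in a fat pad, and how much of it came with each isolate was not tested.

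On the surface epithelium list, 5 of 12 tested genes were higher and 7 lower, none at an unadjusted p under 0.05, with a median log2 fold change of -0.08.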
